A study of Solanum lycopersicum with 6 samples.

Results

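Abscisic acid (ABA) genes were compared between whole and protoplasted tomato roots, as 10 loci that cover synthesis, breakdown and response. They were picked by locus identifier from the 34688 gene models of the count table, and all 10 were present in it. The list held NCED1 (Solyc07g056570) and NCED2 (Solyc08g016720), 4 CYP707A loci (Solyc04g078900, Solyc08g005610, Solyc04g071150 and Solyc01g108210), the clade A PP2C loci Solyc03g096670 and Solyc07g040990, AREB1 (Solyc04g078840) and TAS14 (Solyc02g084850). The count table holds identifiers only, so the names are those of the gene list. The symbols NCED1, NCED2, AREB1 and TAS14 also stand in the RefSeq gene table of assembly SLM_r2.1, on chromosomes 7, 8, 4 and 2, the chromosomes that the locus identifiers carry. It also holds CYP707A1 and CYP707A2, on chromosomes 4 and 8, and PP2C-1 and PP2C-2, both on chromosome 3. These were not matched to single loci, and neither PP2C symbol is on chromosome 7, which Solyc07g040990 carries. That table matched 0 of the deposited identifiers, and no genome coordinates are given because the files use another annotation (ITAG4.1).

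Whole roots were wild-type M82 seedling root tips without treatment. Protoplasted roots were wild-type M82 root tips digested for 2 h at 25 °C with cellulases, macerozyme and pectolyase in 0.6 M mannitol. RNA of the protoplasted group came from purified protoplasts, so recovered cells were compared with intact tissue. In both groups the seedlings were 7 days old and 50 to 100 primary roots, cut about 3 cm from the tip, made up each sample. There were 3 libraries per group, and the labels name neither separate plantings nor a mock incubation in mannitol for the whole roots. Enzymes, osmotic medium, time after cutting and recovery of cells therefore cannot be told apart, and p-values measure the spread between these libraries. The libraries were made from transcript 3′ ends and held 5198513 to 5790082 estimated counts, and a count of 0 allowed a level of 0.518 to 0.577 CPM (counts scaled to library size), from counting error only.

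ABA is made from carotenoids. NCED enzymes cleave epoxycarotenoids in the plastid, the step that usually limits synthesis, and CYP707A enzymes are cytochrome P450s that hydroxylate ABA and so start its breakdown. When ABA is bound, receptors of the PYR/PYL/RCAR family hold back clade A PP2C phosphatases, which frees SnRK2 kinases to activate AREB/ABF transcription factors. In Arabidopsis, genes for clade A PP2Cs and for CYP707A enzymes are themselves induced by ABA. In tomato roots ABA also increases suberin in the exodermis, the outermost cortical layer.

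A breakdown gene was higher in protoplasted roots and the response genes were lower. The CYP707A locus Solyc08g005610 was 4.68-fold higher, whereas TAS14, both PP2C loci and AREB1 were 2.76- to 8.79-fold lower. The upper value is that of TAS14, which was 3.95-fold lower with whole replicate 1 left out of the mean. A second CYP707A locus, Solyc04g071150, was 2.08-fold lower. NCED1 did not pass the test, and NCED2 and the other CYP707A loci had few counts. Of the 10 loci, 7 passed the filter on low counts, 1 was higher and 5 were lower when edgeR p-values were adjusted over 15966 genes by the Benjamini-Hochberg method and cut at 0.05. Among all genes tested, 17.0% were higher and 18.7% were lower. The median log2 fold change was -1.46 over the 7 loci and 0.02 over all genes tested. Loci that passed the filter may have done so through the group in which they were high, so these counts describe these loci only. Values are CPM normalized by TMM unless stated, with SD over n = 3 libraries.

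**Figure D1:**
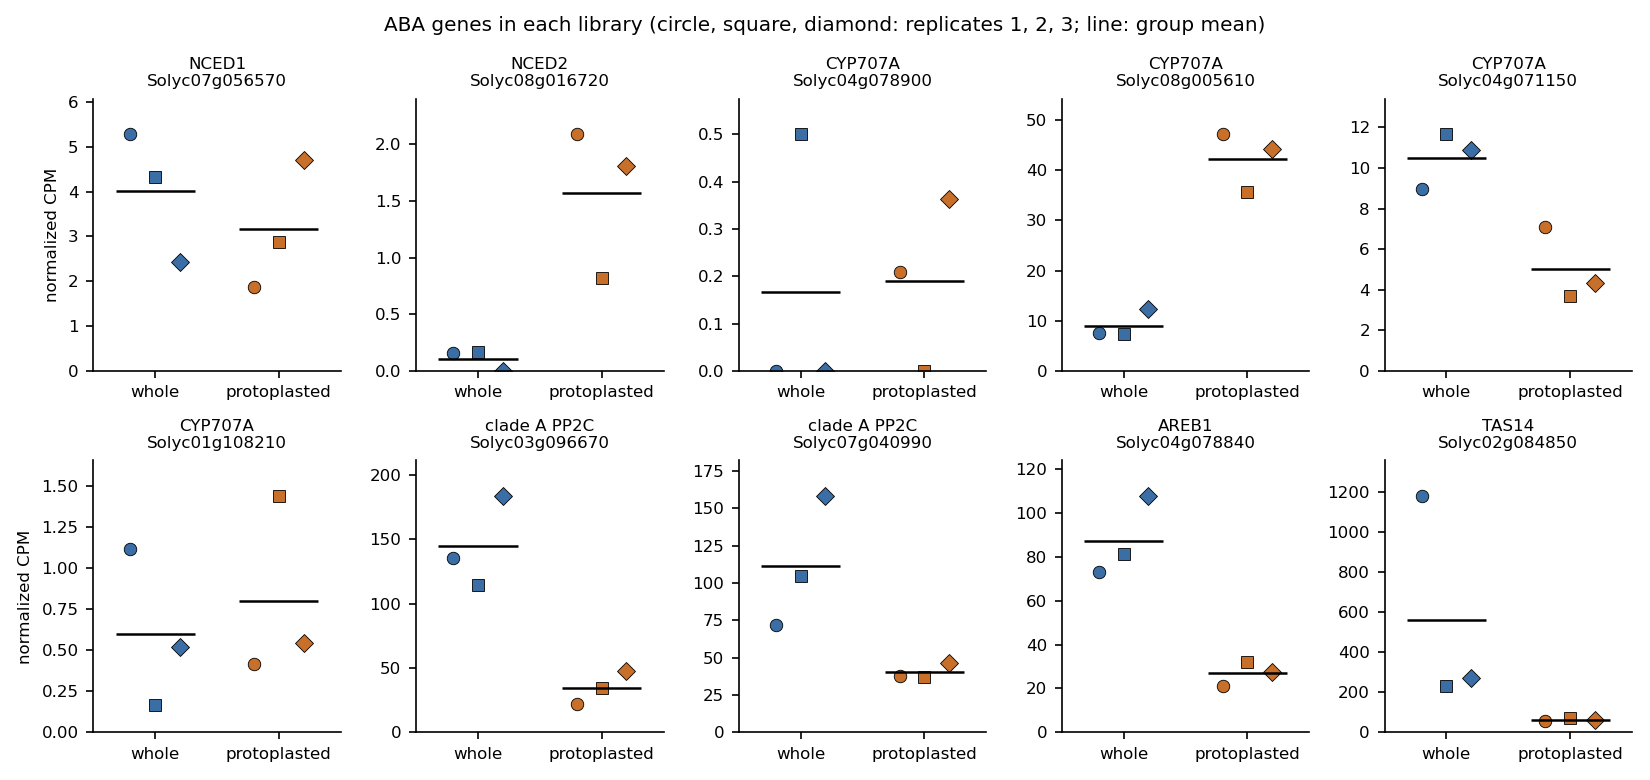
Level of each ABA gene in every library, in normalized CPM on linear axes from 0 that differ between panels. Points are libraries (circle, square and diamond for replicates 1, 2 and 3) and lines are group means. TAS14 stood at 1179 CPM in whole replicate 1 and at most at 271 in the other libraries, and the groups of NCED1 overlapped.

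Synthesis was represented by NCED1 and NCED2. NCED1, the gene that is defective in the wilty notabilis mutant, had 5.27, 4.33 and 2.42 CPM in whole roots and 1.88, 2.88 and 4.71 CPM in protoplasted roots (replicates 1, 2 and 3). The groups overlapped, and the library with the most NCED1 was replicate 1 among whole roots but replicate 3 among protoplasted roots. Within replicate numbers the log2 ratio of protoplasted to whole roots was -1.49, -0.59 and 0.96, so that its sign was not shared. The log2 fold change of -0.34 had a 95% interval from -1.45 to 0.78 (edgeR adjusted p = 0.626). NCED1 had 9 to 33 counts per library, and among the 7 loci tested only TAS14 had a wider interval.

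NCED2, a related dioxygenase, was hardly detected in whole roots. It had 1, 1 and 0 counts there and 10, 4 and 10 counts in protoplasted roots, so the groups did not overlap. It fell below the filter and has no value in the test of all libraries. Over the pooled counts, 24 in protoplasted and 2 in whole roots, the depth-adjusted ratio was 12.8 (95% exact binomial interval 3.17 to 111, counting error only). Without a filter the log2 fold change was 3.59 ± 1.06 (SE, edgeR adjusted p = 0.0228 over 24719 genes). NCED2 made up 0 to 3.70% of the NCED counts in whole roots and 22.2 to 52.6% in protoplasted roots. The summed level of both loci was 4.12 ± 1.54 CPM in whole and 4.73 ± 1.56 CPM in protoplasted roots.

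Breakdown genes did not move together. The CYP707A locus Solyc08g005610 had 7.51, 7.33 and 12.3 CPM in whole roots and 47.2, 35.6 and 44.2 CPM in protoplasted roots. Every protoplasted library was above every whole-root library, and the gap ran from 12.3 to 35.6 CPM. The mean rose from 9.04 ± 2.80 to 42.3 ± 6.01 CPM, a log2 fold change of 2.23 ± 0.28 (SE, edgeR adjusted p = 9.9e-04). This change lay above that of 96.7% of the genes tested.

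The CYP707A locus Solyc04g071150 moved the other way. It had 8.95, 11.7 and 10.9 CPM in whole roots and 7.10, 3.70 and 4.35 CPM in protoplasted roots. The groups did not overlap, although protoplasted replicate 1 came close to whole replicate 1. The log2 fold change was -1.06 ± 0.35 (SE, edgeR adjusted p = 0.0434), and the call was lost without whole replicate 2 (adjusted p = 0.132), whole replicate 3 (0.0937), protoplasted replicate 2 (0.122) or protoplasted replicate 3 (0.0941). Its estimated counts were not whole numbers in any of the 6 libraries. Kallisto had therefore divided some of its reads with similar transcripts, which leaves its level uncertain.

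The remaining CYP707A loci were near the limit of detection. Solyc04g078900 had at most 3 counts in any library, and no fold is given for it. Solyc01g108210 had 7, 1 and 3 counts in whole roots and 2, 7 and 3 in protoplasted roots. Its groups overlapped, with a pooled ratio of 1.16 (95% exact binomial interval 0.469 to 2.90), so a difference was not detectable at this depth.

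The makeup of the CYP707A counts differed between the groups. Solyc08g005610 took 43.9% ± 7.21 (SD, n = 3) of the counts of the 4 loci in whole roots and 87.5% ± 1.79 in protoplasted roots, with ranges of 37.3 to 51.6% and 85.8 to 89.3%. Solyc04g071150 took 52.1% ± 6.63 and 10.4% ± 2.37. The summed CYP707A level was 20.3 ± 3.17 CPM in whole and 48.4 ± 7.18 CPM in protoplasted roots. These shares restate the levels above and were not tested. They are shares of 3′ counts, not of enzyme.

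**Figure D2:**
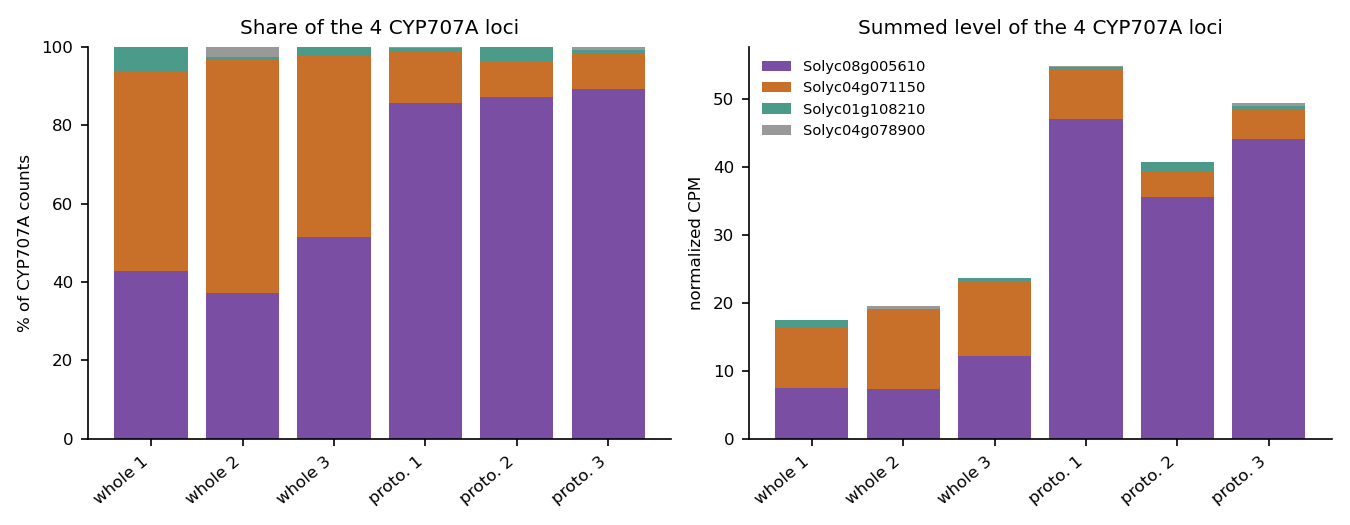
CYP707A loci in each library, as a percentage of the counts of the 4 loci (left) and as summed normalized CPM (right), with 1 bar per library and 1 colour per locus. Solyc08g005610 made up at most 51.6% of the counts in a whole-root library and at least 85.8% in a protoplasted one.

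Response genes were lower in protoplasted roots. TAS14 encodes a dehydrin, a hydrophilic protein that accumulates in tomato with ABA, salt and osmotic stress. It had 1179, 234 and 271 CPM in whole roots and 55.7, 72.2 and 63.6 CPM in protoplasted roots. The groups did not overlap, but whole replicate 1 stood 4.35 times above the next whole-root library. The log2 fold change was -3.14 ± 0.61 (SE, edgeR adjusted p = 0.00519), and without whole replicate 1 it was -1.99 (adjusted p = 8.5e-04). As ratios of group means, TAS14 was 8.79-fold lower with all whole-root libraries and 3.95-fold lower against the mean of whole replicates 2 and 3, 252 CPM. The direction and the call held without that library, while the size of the fold depended on it.

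Through that library, TAS14 spread widely in whole roots. Its coefficient of variation was 95.4% in whole and 12.9% in protoplasted roots, where the median of all genes tested was 25.2% in whole roots. Among the other loci tested, the coefficient lay between 13.3% and 39.2% in whole roots. Whole replicate 1 was not generally highest for the response genes, since AREB1 and both PP2C loci peaked in whole replicate 3.

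AREB1 encodes a bZIP transcription factor that binds ABA-responsive promoter elements. It had 73.2, 81.1 and 108 CPM in whole roots and 21.1, 32.1 and 27.7 CPM in protoplasted roots. All whole-root libraries were above all protoplasted ones. The mean fell from 87.3 ± 18.1 to 27.0 ± 5.54 CPM, a log2 fold change of -1.69 ± 0.25 (SE, edgeR adjusted p = 0.0017). It had the smallest standard error of the 7 loci tested, and its log2 ratio within replicate numbers was -1.80, -1.34 and -1.96.

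Clade A PP2Cs are the phosphatases that ABA receptors inhibit. Solyc03g096670 had 135, 114 and 184 CPM in whole roots and 21.9, 34.6 and 47.6 CPM in protoplasted roots. The groups did not overlap, and replicate 3 was the highest library in each. The log2 fold change was -2.05 ± 0.32 (SE, edgeR adjusted p = 0.00214). This locus carries the annotation protein phosphatase 2C in the study and was the only member among the 180 genes of its royalblue co-expression module. The study built that module from other root libraries and found it enriched in suberin-related genes.

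The PP2C locus Solyc07g040990 showed the same direction with a smaller fold. It had 71.8, 105 and 158 CPM in whole roots and 37.8, 36.8 and 46.5 CPM in protoplasted roots. The whole-root libraries spread more than the protoplasted ones, with coefficients of variation of 39.2% and 13.3%, and the groups did not overlap. The mean fell from 112 ± 43.7 to 40.4 ± 5.36 CPM, a log2 fold change of -1.46 ± 0.30 (SE, edgeR adjusted p = 0.00682). The 95% intervals of the log2 fold changes of Solyc03g096670 (-2.79 to -1.32) and Solyc07g040990 (-2.15 to -0.78) overlapped, and the difference between these loci was not tested.

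**Figure D3:**
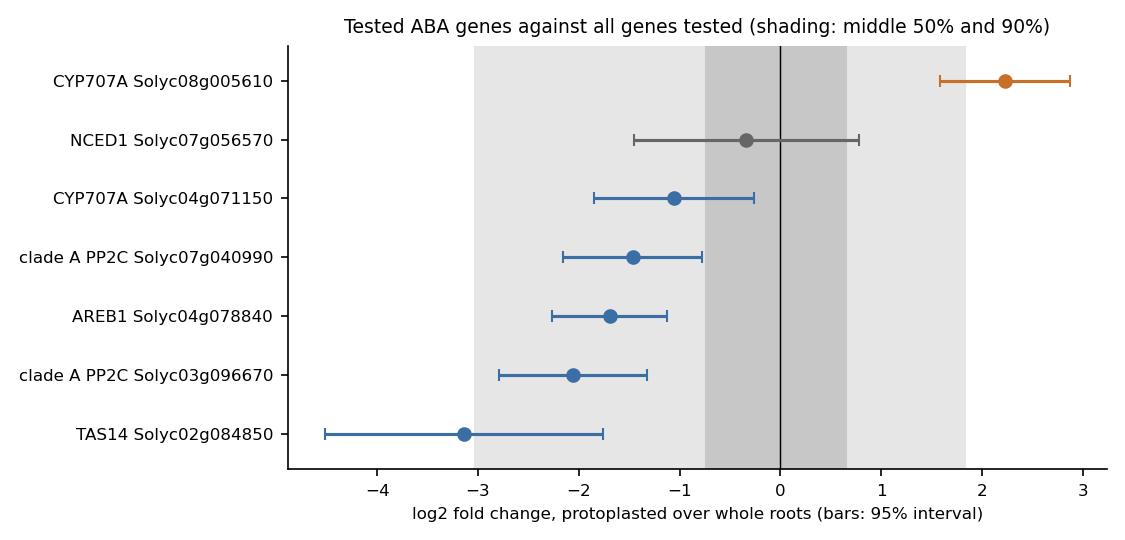
Log2 fold change of protoplasted over whole roots for the 7 ABA genes tested. Points are estimates from edgeR, bars are 95% intervals, colour marks an adjusted p under 0.05 (orange higher, blue lower, grey neither) and shading marks the middle 50% and 90% of all genes tested. The CYP707A locus Solyc08g005610 lay outside the middle 90% (-3.03 to 1.83), as did TAS14 at -3.14. Without whole replicate 1 the TAS14 estimate was -1.99, and the middle 90% of that fit was not computed. The interval of NCED1 crossed 0.

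With all 6 libraries, only TAS14 of the loci that fell lay in the lowest 5% of the genes tested, a bound at a log2 fold change of -3.03. The TAS14 estimate was smaller in size without whole replicate 1 (-1.99), with the replicate block (-2.69) and with limma-voom (-2.73). The bound was taken from the fit of all libraries only, so the place of TAS14 among all genes in those fits is not known. In the fit of all libraries, the share of genes with a lower log2 fold change was 4.70% for TAS14, 9.70% for Solyc03g096670, 12.2% for AREB1, 14.3% for Solyc07g040990 and 19.3% for Solyc04g071150. The groups did not overlap in 6 of the 7 loci tested, 1 higher and 5 lower, where 25.1% of all genes tested were separated in the higher direction and 25.6% in the lower direction.

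Markers of the mature exodermis fell along with the response genes. Of 11 genes that the study places at the end of the exodermal trajectory, 10 were in the table and tested, and each of the 10 passed the same edgeR threshold as lower, with log2 fold changes from -7.42 to -3.79, where 18.7% of all genes tested were lower. Most passed the filter through the whole roots only, such as SlMYB92 with 3, 2 and 3 counts in protoplasted roots. The count of lower markers therefore describes these markers only, and the share over all genes does not test it. Their summed level was 1422 to 2812 CPM in whole and 12.1 to 50.0 CPM in protoplasted roots. SlGPAT5 was at 0 in 2 protoplasted libraries and no other marker was at 0 in any. This sum was highest in replicate 3 of each group, as were both PP2C loci. AREB1 was highest in whole replicate 3 and protoplasted replicate 2, and TAS14 in whole replicate 1 and protoplasted replicate 2. The part of these cells in the fall of TAS14, AREB1 and the PP2C loci was not tested. In bulk libraries, fewer cells of a type and less RNA per cell cannot be told apart. Markers of other root cell types were not annotated in the sources used here.

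**Figure D4:**
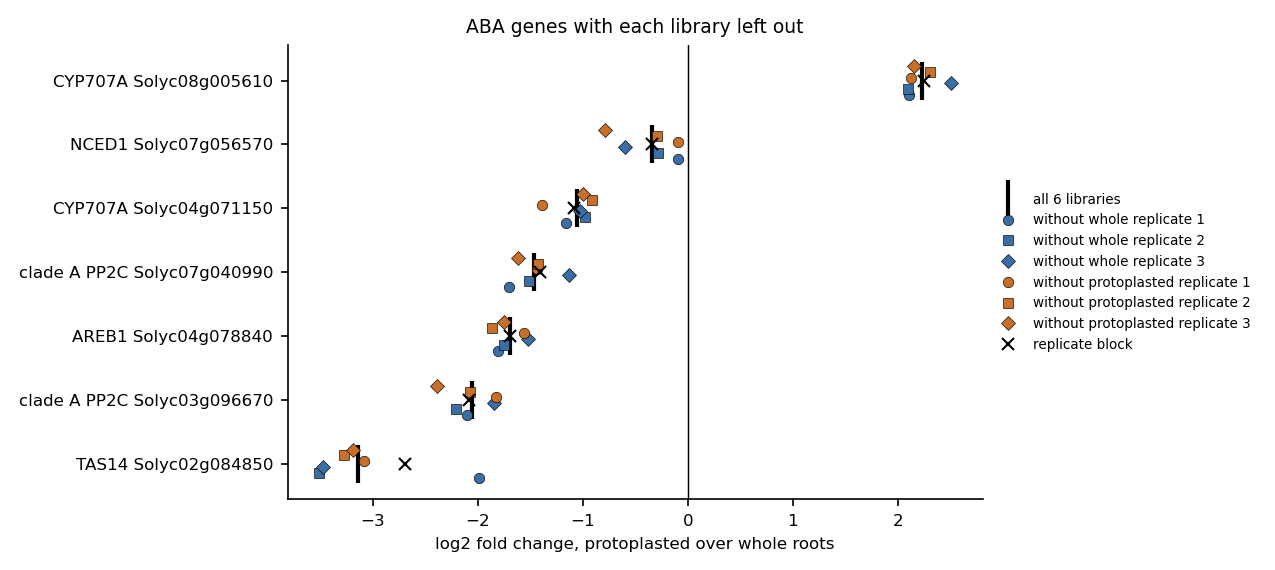
Log2 fold change of the 7 ABA genes tested with all 6 libraries (bar), with each library left out in turn (points) and with the replicate number as a block (cross). No point crossed 0, and the widest shift was that of TAS14 without whole replicate 1, at -1.99.

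Other loci of the pathway were read from a list of 49 identifiers, assigned to steps from general knowledge of tomato ABA genes and not by an annotation in the files. Of these, 46 were in the table and 32 were tested. By the same edgeR threshold, 19 were lower and 5 higher, with a median log2 fold change of -1.47, where 18.7% of all genes tested were lower and 17.0% higher. The share of higher loci was close to that background. The count of 5 was also unstable, being 3, 1 and 2 without whole replicates 1, 2 and 3, and 1, 2 and 2 without protoplasted replicates 1, 2 and 3. It was 3 when counts were scaled by library size only. The count of lower loci was 13 to 20 under the alternatives. The list was chosen with earlier results of these data known, and some lower loci passed the filter through the whole roots only. These counts therefore describe the listed loci only, and the shares over all genes do not test them.

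The steps before NCED showed a single direction among the loci tested. Of 11 loci listed for carotenoid precursor steps, 8 were tested and all 8 were lower, beside 18.7% of all genes tested. Their log2 fold changes ran from -3.46 to -1.49. Some passed the filter through the whole roots only. A locus among them had 86, 101 and 184 counts there and 3, 8 and 22 in protoplasted roots. Untested loci of these steps had few counts, with ratios of protoplasted to whole means of 2.11, 0.50 and 0.11. The count of lower loci therefore describes the loci tested only. Of 4 further loci listed for ABA synthesis, 3 were tested and 2 were lower, and the remaining log2 fold change was -0.59. These carotenoid steps also feed pigments and strigolactones, so they are not particular to ABA.

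Perception and signalling loci had values on both sides of 0, and the few higher calls belong to the unstable count above. Beside the all-gene shares of 17.0% higher and 18.7% lower, nothing is read from the counts of these small groups. Of 14 receptor loci, 7 were tested, of which 2 were higher and 2 lower, with log2 fold changes from -2.96 to 0.91. All 7 SnRK2 kinase loci were tested, of which 2 were higher and 4 lower, from -3.10 to 1.22. Of 4 other clade A PP2C loci in the table, 3 were tested and 2 were lower, and of 4 other AREB/ABF/ABI5 loci 3 were tested and 1 was lower. A single locus listed as another dehydrin was tested, the row just before TAS14 in the table, with a log2 fold change of 3.02 and an edgeR adjusted p of 0.0283. Its groups overlapped, and the call was lost with limma-voom (adjusted p = 0.125) and in 4 of the 6 fits that left out a library (adjusted p from 0.0589 to 0.0925).

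**Figure D5:**
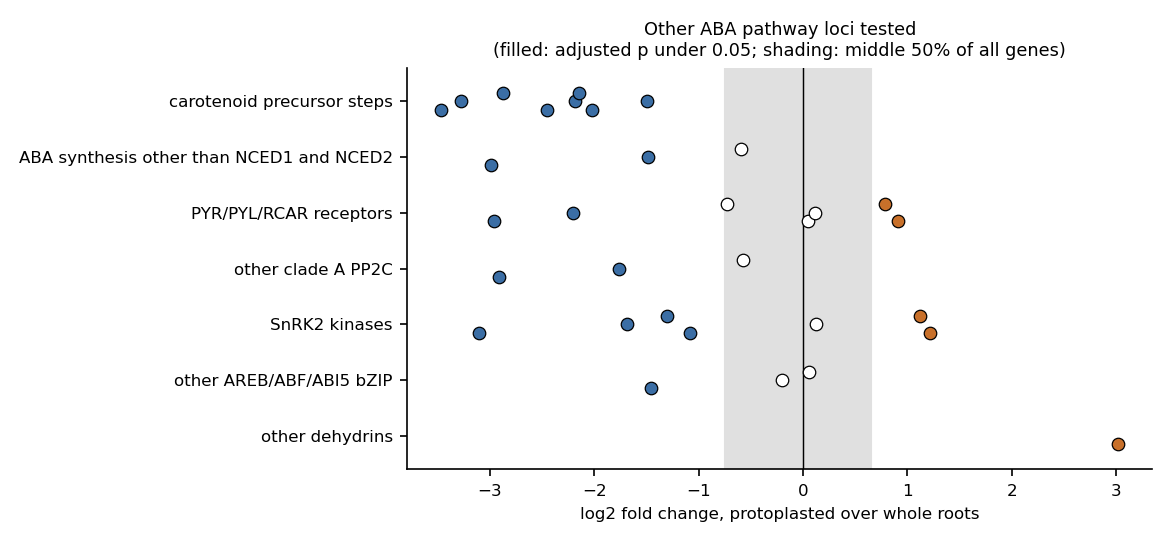
Log2 fold change of protoplasted over whole roots for the 32 other ABA pathway loci tested, grouped by step. Each point is a locus, filled where the adjusted p was under 0.05 (blue lower, orange higher), and shading marks the middle 50% of all genes tested. All 8 carotenoid precursor loci lay at or below -1.49, while receptor and SnRK2 loci fell on both sides of 0.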

How the data were processed

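Bulk RNA-seq was measured in 3 whole and 3 protoplasted root samples. The authors trimmed reads with TrimGalore! 0.6.6, assigned read 1 to ITAG4.1 transcripts with Kallisto 0.46.2 and deposited estimated counts per gene model, without normalization. No molecular identifiers or strand option are stated. Per the methods, sequences were pooled ahead of trimming, yet the table has a column for each library. Library pairs within a group differed far beyond counting noise (chi-square divided by its degrees of freedom from 13.2 upward).

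Estimated counts were rounded. filterByExpr kept 15966 genes (count minimum 10, total minimum 15), TMM scaled them, and the quasi-likelihood test of edgeR 4.0.16 (R 4.3.3) compared the groups without a block. Standard errors were the log2 fold change divided by the root of the F statistic. All 10 loci are named, and of the other pathway loci none by identifier, since no file annotates them. Members and lists were chosen with earlier results of these data known. Libraries that shared replicate number 1 or 3 in the labels deviated together (correlations 0.429 and 0.538), while those of replicate 2 did so little (0.114). Pairs with unlike numbers gave correlations from -0.472 to 0.026. A replicate block was therefore fitted as an alternative. The others were DESeq2 1.42.0, limma-voom (limma 3.58.1), other scalings and filters, and each library left out. On simulated counts with 200 of 15966 genes changed by a log2 fold change of 3, edgeR recovered 95% of them and 5% of its calls were false. The simulated counts had no replicate effect, and their change was larger than that of every ABA gene tested but TAS14. They therefore do not give the power or the share of false calls for the ABA genes. No sequences are shown, since none were at hand for these genes.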

Additional observations from a re-analysis of the deposited data

How the results depend on the processing

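No ABA gene tested changed direction under the alternatives. With 14 alternatives to the main setting, the count of lower members stayed at 4 or 5. The count of higher members was 2 without a filter and 1 to 2 over the fits that left out a library. It was 2 without whole replicate 1 and without protoplasted replicate 2, because NCED2 then passed the filter and was called, at an adjusted p of 0.0314 and 0.0270. Solyc04g071150 also missed the threshold without a filter (adjusted p = 0.0564). Over the fits that left out a library, 1522 to 2747 of all genes tested were higher (1522 without protoplasted replicate 2, 1726 without whole replicate 2) and 1 to 3 of the other pathway loci were higher. The latter count was 3 with library size only. The cause was not tested. Scaling by library size only left 35.4% of all calls on the higher side, where TMM gave 47.6%, and shifted the median over all genes from 0.02 to -0.14 (log2). Under the replicate block 1 member was higher and 5 were lower, 3985 of all genes were higher and 3876 lower, and the log2 fold change of TAS14 was -2.69. The block changed no call of a member. NCED2, Solyc04g078900 and Solyc01g108210 had few counts, and depth limited what could be seen of them. NCED1 had 9 to 33 counts per library, with coefficients of variation of 36.3% in whole and 45.5% in protoplasted roots. The parts of depth and of spread between libraries in its wide interval were not tested.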

Other observations

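The height of TAS14 in whole replicate 1 was uncommon. Its level there was 4.35 times that of the next whole-root library, the 65th largest such ratio of 15966 genes tested, and 179 genes (1.12%) stood at least 3-fold above both other whole-root libraries in that replicate. The corresponding counts were 79 for whole replicate 2 and 156 for whole replicate 3. Among protoplasted libraries they were 92, 86 and 331. No cause for this level was tested.

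The gene model in the row just before TAS14 in the deposited table, the locus listed above as another dehydrin, moved the other way, and it was picked out after its values were seen. It had 3, 9 and 18 counts in whole roots and 9, 76 and 131 counts in protoplasted roots, so the groups overlapped. Its log2 fold change was 3.02 ± 0.88 (SE, edgeR adjusted p = 0.0283). The call was lost with limma-voom (adjusted p = 0.125) and in 4 of the 6 fits that left out a library, with adjusted p-values from 0.0589 to 0.0925 in those 4. It was kept with DESeq2 (adjusted p = 0.00149) and with the replicate block (adjusted p = 3.2e-04). Within replicate numbers its log2 ratio was 1.97, 3.38 and 2.93, where that of TAS14 was -4.40, -1.69 and -2.09.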
